A study of Homo sapiens with 12 samples.

Results

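Imprinted genes were followed in human embryonic stem cells with and without UBQLN1. The 40 genes are a fixed list of symbols that was grouped by imprinted locus. Its members were not filtered by a measured value, but the list was chosen with earlier results of these data known. All 40 symbols were present among the 28278 genes of the count table, spread over 19 loci, and 29 of the 40 passed the filter on low counts. The cells were of the line WA26, an established human embryonic stem cell line. UBQLN1 encodes ubiquilin 1, a shuttle protein that delivers ubiquitinated proteins for degradation, and it was disrupted with CRISPR-Cas9 to give UBQLN1-/- cells, called KO here. Each of 4 groups held 2 libraries of total RNA: untreated WT and untreated KO cells, both at normal O2, KO cells that were given the antioxidant N-acetyl-L-cysteine (NAC), and KO cells grown in 5% O2. All cells shared the WA26 background, and the 6 KO libraries shared the disruption of UBQLN1. The study names DMSO as the control treatment beside NAC, whereas the labels of the untreated cells name no treatment. The study's scheme shows repeated passages under NAC or low O2 before RNA-seq, while its text gives a day of culture for the RNA-seq at 5% O2. The labels name no duration, so time in culture may differ between the groups. Which clone gave each library is not given in the sources used here, so p-values measure the spread between these libraries. The study names 2 biological replicates per group for KO cells at normal and 5% O2, without saying whether they were separate clones. In the other groups the spread may be technical. The labels also describe WT cells under both treatments, 4 libraries in all that were not analysed here, and each treatment was therefore compared within KO cells only.

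At an imprinted gene, the copy inherited from one parent is expressed and the copy from the other parent is silenced. The choice is laid down in the germ line as DNA methylation at imprinting control regions and is kept through early development by zinc finger proteins that recruit the corepressor TRIM28 and DNA methyltransferases. Many imprinted genes act on fetal and placental growth, and in cultured pluripotent stem cells their imprints are known to be lost or gained at single loci. Counts per gene add up both alleles, so the libraries measure the dosage of each gene and not which parental copy was read.

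The 8 libraries held between 31236968 and 41639350 counts. UBQLN1 itself was at 221 and 197 CPM in WT (CPM, a library's counts scaled to a common total after TMM adjustment) and between 42.3 and 62.4 CPM in the 6 KO libraries, a log2 fold change of -2.29 ± 0.12 (SE) in KO against WT. The 12 pluripotency markers summed to between 6608.4 and 7995.1 CPM in every library. With NAC, 3 of them were higher than in untreated KO and 5 lower at an edgeR adjusted p under 0.05 (against 23.8% and 20.8% of all genes). The 3 were ZFP42, DPPA4 and TDGF1, and the 5 were TERT, DNMT3B, SALL4, L1TD1 and NANOG. DNMT3B fell from 2552.9 and 2455.1 to 1136.5 and 1418.4 CPM. With the length and GC trend described below removed, 3 were higher and 4 lower, where 26.3% of all genes were called in either direction. TDGF1 was then called lower and PODXL higher, and TERT and SALL4 were no longer called. NAC replicate 1 stood apart: all 12 fibroblast or mesenchyme markers were highest there, with a summed level of 1077.2 CPM against 520 to 635 CPM in the other 7 libraries, and the collagen-binding proteoglycans DCN and LUM were at 1809 and 148 counts there and at 0 in the other 7. The calls on the listed genes are therefore also given for a fit without it. Between 68.5% and 72% of all counts from 1 to 10 were even numbers, so the counts do not behave as sums of independent single reads, and intervals and floors that assume them cover that counting error only. Summed over 10 neural markers the level was 436 to 478 CPM in WT, 700.0 to 709 CPM in KO, 446 to 520 CPM at 5% O2 and 270.0 to 324 CPM with NAC, and neither the mesendoderm and endoderm markers nor the trophoblast markers summed to more than 13.9 CPM in any library. The part of these markers in the results on imprinted genes was not tested. In bulk RNA, fewer cells of a type and less RNA per cell cannot be told apart.

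In WT cells the listed genes spanned more than 4 orders of magnitude on the scale of CPM per kb of canonical transcript. GNAS, which encodes the stimulatory G protein alpha subunit, was at 658 ± 5.48 CPM per kb (SD, n = 2). PEG10, a retrotransposon-derived gene needed for the placenta, followed at 150 ± 9.53, and MEST, a gene of the alpha/beta hydrolase family, at 93.8 ± 4.28 CPM per kb. Next in order were the membrane protein gene NNAT at 82.6 ± 2.83, NDN of the MAGE family at 44.2 ± 1.28, and GRB10, an adaptor that restrains insulin and insulin-like growth factor (IGF) receptors, at 27.5 ± 0.671 CPM per kb. The ranges of the 2 WT libraries did not overlap between any of these neighbours. INPP5F at 26 and BLCAP at 24.5 CPM per kb came next, while IGF2R, at 12.8 and 15.6 CPM per kb in the pair of WT libraries, overlapped with SGCE at 12 and 14.6 CPM per kb and the 2 could not be ordered. At the other end, IGF2 was at 0.0143 ± 0.0126 CPM per kb. KCNQ1OT1 and SNRPN were left out of this order because the canonical transcript is short beside the gene in the first and largely shared with SNURF in the second.

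**Figure D1:**
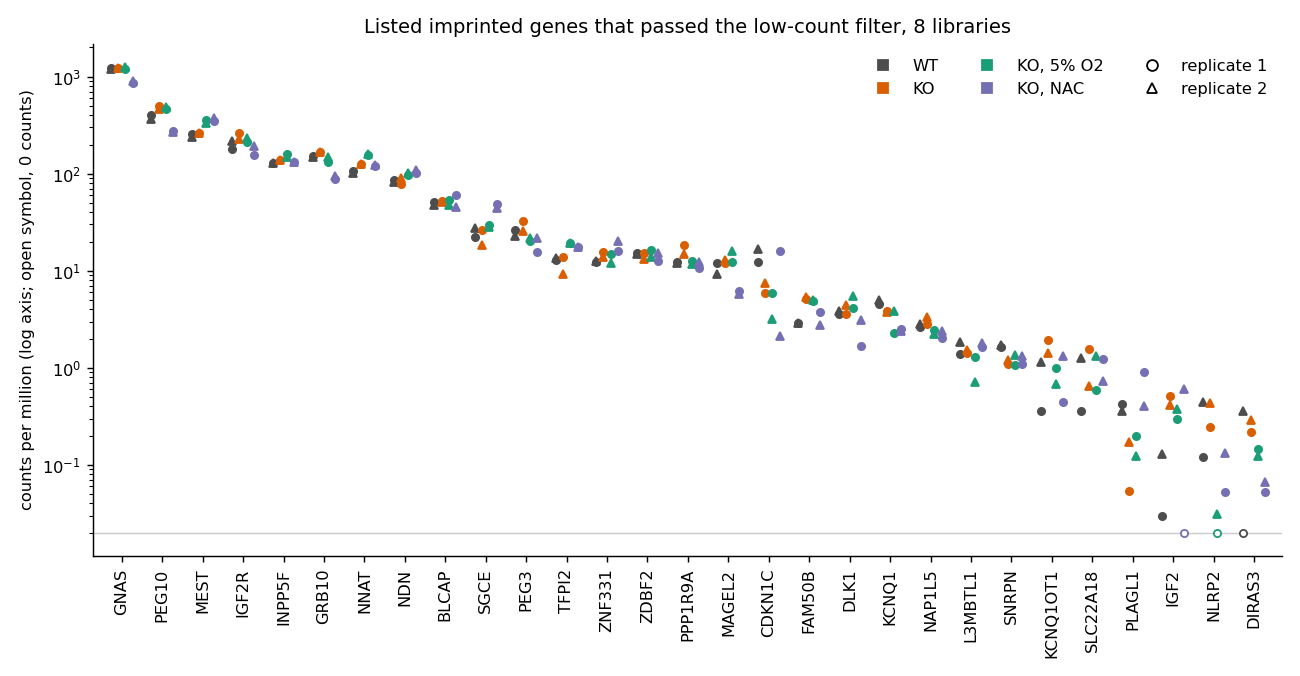
Level in CPM (log axis) of the 29 listed imprinted genes that passed the low-count filter, ordered by mean level, with 1 symbol per library; colours give the 4 groups, circles replicate 1, triangles replicate 2 and open symbols 0 counts. GNAS lies above 1212 CPM in the 6 libraries without NAC and at 868 and 895 CPM with it, and CDKN1C is at 15.9 and 2.1 CPM in the NAC pair.

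The 11 genes under the filter had few or no counts in most libraries. HYMAI, a noncoding RNA that starts at the imprinted promoter of PLAGL1, had 0 counts in all 8 libraries, which allows up to 0.072 to 0.096 CPM per library (3 counts of the total, counting error only). H19, the maternally expressed noncoding RNA of the IGF2 domain, had 3 and 6 counts in the WT libraries and 0 in all 6 KO libraries. MEG3, the maternal noncoding RNA of the DLK1 domain at 14q32.2, was at 0 in 6 libraries, at 4 counts in 5% O2 replicate 1 and at 67 counts in NAC replicate 1. Its neighbour MEG8 had 4 counts, all in NAC replicate 1. No other gene of the 11 exceeded 9 counts in any library: these were MEG9, the retrotransposon-derived RTL1, ZIM2, DLX5, SNURF, the growth-restraining PHLDA2 and the ubiquitin ligase gene MKRN3, whose 6 counts lay in 1 KO library. PHLDA2 is a special case, because 96.9% of all 31-base stretches (words) in its transcript have a copy on alternate scaffolds of hg38, and reads that map to several places were not counted. The same share was 92% for CDKN1C, 90.6% for NLRP2, 76.1% for SLC22A18 and 44.4% for KCNQ1, so the levels of these genes may be too low in all libraries; whether the authors' copy of hg38 held these scaffolds is not given in the sources used here. SNURF and SNRPN lie on 1 transcript, and 65% of SNRPN's exon bases are shared with other counted genes. Of SNURF's exon bases 30.4% are shared with SNRPN, and of ZIM2's 41.7% with PEG3. Reads in shared exons may have been assigned to neither gene, so low counts of these genes need not mean little RNA. SNHG14, a noncoding RNA gene of the same region as SNRPN, was at 156 to 260 CPM. SNRPN, which encodes a splicing protein, had 40 to 67 counts per library.

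Many listed genes carry, near a start site, the hexamer that the zinc finger protein ZFP57 is known to read. ZFP57 binds the hexamer TGCCGC when its CpG is methylated, and it keeps imprints in the early embryo. RefSeq promoter windows (GRCh38.p14, 300 bases around each start) were matched for 26 of the 40 genes. The hexamer, searched on both strands, was present in at least 1 window of 15 of these 26 genes (57.7%) and of 19.5% of all 27305 genes with a window. By window, 39% of 59 held it against 16.7% of 35093, although windows of the same gene can overlap. The listed genes have more windows per gene, which can raise the share by gene. PLAGL1 and HYMAI count separately among the 15 but share a window, as do SNRPN and SNURF. The median CpG count was 18 in the listed windows and 14 in all windows, and the hexamer holds a CpG. The windows below show the hexamer in 3 imprinted domains. Of their genes PLAGL1 and MEST were called with NAC, SNRPN was not, and HYMAI and SNURF were not tested. With NAC 44.6% of all tested genes were called, so these calls say nothing about the hexamer. The first is shared by PLAGL1 and HYMAI (chr6:144008210-144008509, minus strand), the second is a start of MEST (chr7:130491835-130492134, plus strand) and the third is shared by SNRPN and SNURF (chr15:24954737-24955036, plus strand). Capitals mark TGCCGC or its reverse complement.
PLAGL1 and HYMAI: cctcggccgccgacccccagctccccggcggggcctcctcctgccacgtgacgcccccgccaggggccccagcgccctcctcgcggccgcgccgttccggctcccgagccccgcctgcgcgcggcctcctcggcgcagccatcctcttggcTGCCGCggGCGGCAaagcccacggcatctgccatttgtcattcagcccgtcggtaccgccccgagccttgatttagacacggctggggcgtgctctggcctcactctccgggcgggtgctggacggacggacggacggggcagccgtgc
MEST: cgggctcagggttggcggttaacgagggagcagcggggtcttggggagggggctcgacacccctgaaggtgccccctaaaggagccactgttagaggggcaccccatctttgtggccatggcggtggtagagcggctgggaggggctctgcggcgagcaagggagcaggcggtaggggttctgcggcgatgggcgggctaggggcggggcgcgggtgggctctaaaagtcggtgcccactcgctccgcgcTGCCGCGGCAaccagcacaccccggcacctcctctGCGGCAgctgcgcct
SNRPN and SNURF: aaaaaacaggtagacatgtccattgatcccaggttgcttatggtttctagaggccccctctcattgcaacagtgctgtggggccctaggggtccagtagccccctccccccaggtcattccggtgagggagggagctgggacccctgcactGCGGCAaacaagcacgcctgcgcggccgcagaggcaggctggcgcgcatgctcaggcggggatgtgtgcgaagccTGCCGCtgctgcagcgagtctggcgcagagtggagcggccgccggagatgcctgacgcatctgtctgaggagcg
These hold 2, 3 and 2 copies of the hexamer, of which a pair in MEST overlaps, and 39, 25 and 18 CpG dinucleotides. The median of 14 CpG in all windows includes windows without the hexamer, which itself adds a CpG, so the 2 are not like for like. Both genes of the first window were at the bottom of the range, with PLAGL1 at 2 to 35 counts per library and HYMAI at 0. MEST was among the highest listed genes in every library. A match describes the letters only, and methylation was not measured here. ZFP57 had 0 counts in all 8 libraries, but 94.7% of its words lie on alternate scaffolds, so its level cannot be read from these counts. ZNF445, the other zinc finger protein known to keep imprints, was at 20.2 to 37.3 CPM.

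The first question was whether the dosage of imprinted genes differed between KO and WT cells. Unless another fit is named, adjusted p-values are Benjamini-Hochberg values of edgeR's quasi-likelihood test over the 15916 tested genes, and called means under 0.05. Those of another fit are adjusted over the genes tested in it, 15283 with the length and GC trend removed and 16422 without NAC replicate 1. Of the 29 listed genes tested, 0 were called in KO against WT, higher or lower, where 1.96% of all tested genes were called (1.34% higher, 0.622% lower; 213 and 99 genes, or 87 and 94 with the length and GC trend described below removed). At an unadjusted p under 0.05 there were 5 of 29 (17.2%), against 17.6% of all genes: PPP1R9A, NNAT, IGF2R, PEG10 and FAM50B. By the study's criteria, an absolute log2 fold change over 1 with an unadjusted p under 0.05, 0 of 29 passed, against 2.57% of all genes. The median log2 fold change was 0.15 over the listed genes and -0.0024 over all tested genes.

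The listed genes nearest to a call were higher in KO. PEG10 (chr7:94656325-94669695, coordinates of RefSeq on GRCh38.p14 here and below) was at 405 and 370 CPM in WT and at 500 and 465 CPM in KO, a log2 fold change of 0.32 ± 0.083 (SE) with an adjusted p of 0.077. FAM50B (chr6:3831894-3851317), a retrotransposed copy of the gene FAM50A, was at 2.91 and 2.9 CPM in WT and at 5.1 and 5.39 CPM in KO, a log2 fold change of 0.85 ± 0.23 with an adjusted p of 0.0836. NNAT was at 107 and 101 CPM in WT and at 125 and 125 CPM in KO, with an adjusted p of 0.119. For these 3 genes both KO libraries lay above both WT libraries, as they also did for genes farther from a call, such as MEST, INPP5F and NAP1L5. The share of all tested genes with such a separation is not given, here or below, so it marks no gene as changed. DESeq2 called PEG10 and FAM50B, 2 of 29 (6.9%), with adjusted p-values of 0.0181 and 0.0441, where it called 5.4% of all genes.

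CDKN1C (chr11:2883218-2885775), the maternally expressed cyclin-dependent kinase inhibitor of the KCNQ1OT1 domain, had the lowest log2 fold change among listed genes above 1 CPM in WT. It was at 12.4 and 16.7 CPM in WT and at 5.91 and 7.53 CPM in KO. Both KO libraries lay below both WT libraries, yet the log2 fold change of -1.11 ± 0.60 had an adjusted p of 0.365. The spread of this gene in the fit includes the NAC pair, at 15.9 and 2.1 CPM. Without NAC replicate 1 the same log2 fold change of -1.11 had an adjusted p of 0.0133, and in a fit of the 4 WT and KO libraries alone it was 0.00953. Without NAC replicate 1, 4 of 29 listed genes were called (13.8%, where 7.98% of all genes were): CDKN1C lower, and NNAT, PEG10 and FAM50B higher. Leaving out NAC replicate 2 instead called the same 4. The biological coefficient of variation was 13.7% in the fit of all libraries and 10.9% without either NAC library.

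Other genes of the domain gave no call. KCNQ1OT1, the paternal noncoding RNA that silences the domain in cis, was at 12 and 44 counts in WT and at 72 and 58 in KO, and its adjusted p was 0.35. KCNQ1, a potassium channel subunit gene, was at 4.53 and 5.06 CPM in WT and at 3.82 and 3.72 CPM in KO, with an adjusted p of 0.537. NAP1L4, a histone chaperone gene of the same region that is not on the list, was called lower, at 145 and 115 CPM in WT and at 57.9 and 64.9 CPM in KO, a log2 fold change of -1.08 ± 0.20 with an adjusted p of 0.0174. Like CDKN1C, it has most of its words (81.6%) on alternate scaffolds. At the neighbouring H19/IGF2 domain, the fetal growth factor gene IGF2 was at 1 and 5 counts in WT and at 19 and 17 counts in KO, and its adjusted p was 0.331.

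The remaining listed genes in KO against WT were not called. GNAS differed by a log2 fold change of 0.0091 ± 0.071, and NDN by -0.0046 ± 0.10. PLAGL1, a zinc finger transcription factor gene, was at 14 and 14 counts in WT and at 2 and 7 in KO, with an adjusted p of 0.289. In all, 23 of the 29 log2 fold changes were within 0.5 of 0 in size.

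**Figure D2:**
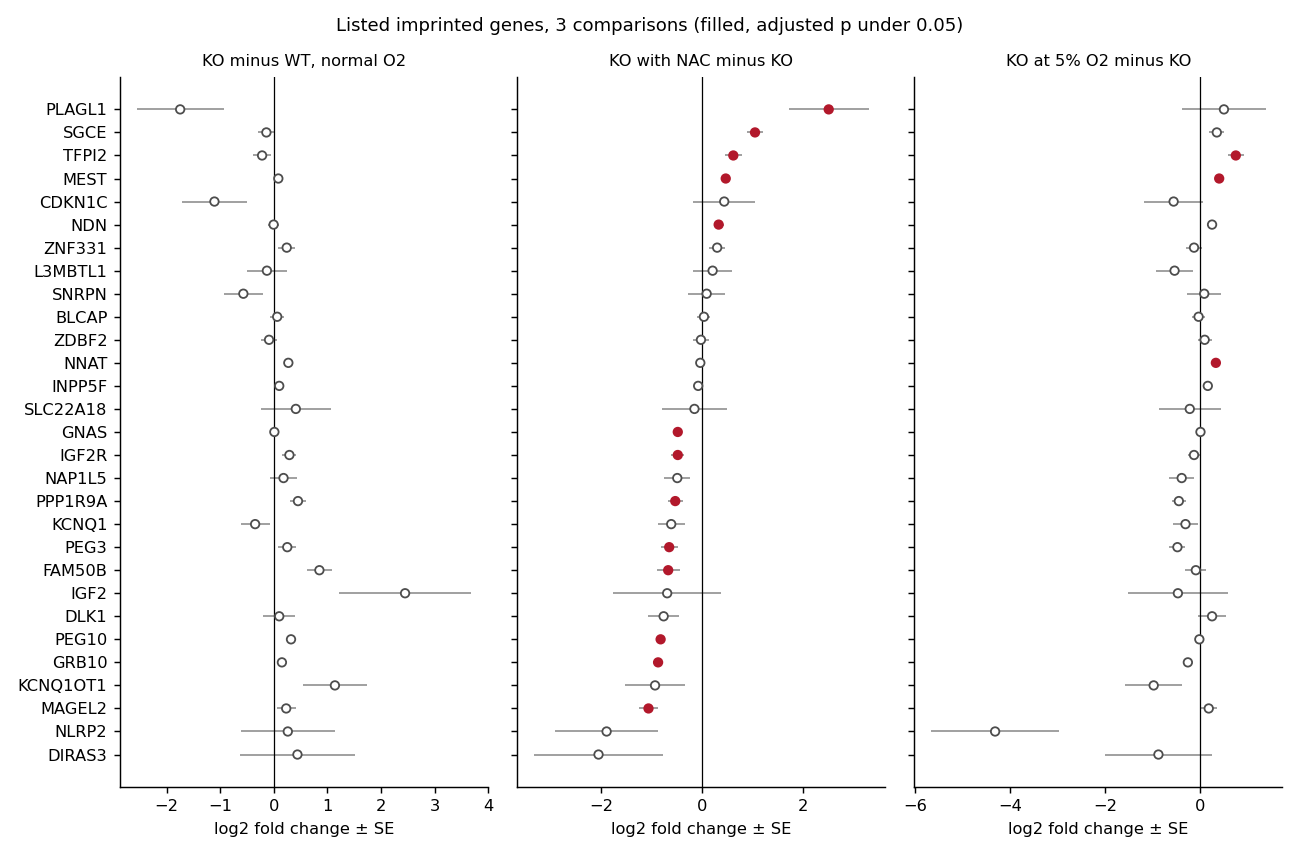
Log2 fold change with its standard error (horizontal bars) of the 29 tested genes in the 3 comparisons, each on its own axis; filled points had an adjusted p under 0.05. No point is filled for KO against WT, 13 are filled with NAC (5 above and 8 below 0) and 3 at 5% O2.

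With NAC, 13 of the 29 listed genes were called in KO cells (44.8%), against 44.6% of all tested genes. In DESeq2 it was 14 of 29 (48.3%) against 44.6%. Of the 13, 5 were higher (17.2%, against 23.8% of all genes): SGCE, PLAGL1, MEST, TFPI2 and NDN. The other 8 were lower (27.6%, against 20.8%): GNAS, PPP1R9A, GRB10, PEG3, IGF2R, PEG10, MAGEL2 and FAM50B. By the study's criteria 3 passed (10.3%, against 9.02%): SGCE, PLAGL1 and MAGEL2. The median log2 fold change was -0.48 over the listed genes and 0.023 over all tested genes.

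At 7q21.3 the neighbours PEG10 and SGCE moved in opposite directions. Both are paternally expressed, and they start close together on opposite strands. PEG10 was at 500 and 465 CPM without and at 277 and 270 CPM with NAC, a log2 fold change of -0.82 ± 0.084 with an adjusted p of 2.7e-05. SGCE (chr7:94584980-94656133), which encodes epsilon-sarcoglycan of the dystrophin-associated complex, was at 26.6 and 18.6 CPM without and at 49.3 and 44.4 CPM with NAC, a log2 fold change of 1.05 ± 0.16 with an adjusted p of 2.7e-04. For neither gene did the pairs overlap, which also held for genes not called with NAC, such as NNAT and INPP5F. PEG10 was at 462 and 491 CPM at 5% O2, while SGCE was at 22.5 and 27.4 CPM in WT and at 29.3 and 28.1 CPM at 5% O2, so the NAC libraries were the lowest of the 8 for PEG10 and the highest for SGCE. The CPM ratio of PEG10 to SGCE was 15.7 ± 3.15 (SD, n = 2) in WT, 21.9 ± 4.35 in KO, 16.6 ± 1.2 at 5% O2 and 5.84 ± 0.321 with NAC; this ratio was chosen after the values were seen. Of the exon bases of PEG10's canonical transcript, 7.85% overlap exons of other GENCODE transcripts of SGCE on the opposite strand, which reach past the RefSeq end of SGCE given here, and the counting did not use strand. PPP1R9A, which encodes the actin-binding scaffold neurabin, fell from 18.3 and 15 CPM to 10.6 and 12.4 CPM, a log2 fold change of -0.53 ± 0.15 (adjusted p of 0.014). In WT it was at 12.4 and 12.11 CPM and at 5% O2 at 12.7 and 11.8 CPM, so the untreated KO pair was the highest. TFPI2, a serine protease inhibitor gene, was at 13.7 and 9.16 CPM without and at 17.7 and 17.5 CPM with NAC, and its log2 fold change of 0.62 ± 0.17 (adjusted p of 0.0119) became -0.18 with the length and GC trend removed. Its WT libraries were at 13 and 13.6 CPM.

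The Prader-Willi domain at 15q11.2 showed the same kind of split. NDN (chr15:23685400-23687305) was at 78.1 and 89.8 CPM without and at 102 and 109 CPM with NAC, a log2 fold change of 0.33 ± 0.10 with an adjusted p of 0.0151. MAGEL2 (chr15:23643549-23647867), a MAGE gene that regulates ubiquitin ligases, was at 12.09 and 12.8 CPM without and at 6.16 and 5.75 CPM with NAC, a log2 fold change of -1.06 ± 0.18 with an adjusted p of 6.2e-04. Both genes are paternally expressed and each has 1 exon. NDN was at 86 and 82.5 CPM in WT and at 97.7 and 102 CPM at 5% O2, and MAGEL2 was at 12 and 9.23 CPM in WT and at 12.4 and 15.8 CPM at 5% O2. With NAC, MAGEL2 was thus below all 6 other libraries. The CPM ratio of NDN to MAGEL2 was 8.05 ± 1.25 in WT, 6.73 ± 0.383 in KO, 7.16 ± 0.978 at 5% O2 and 17.8 ± 1.79 with NAC (SD, n = 2), again chosen after seeing the values. SNRPN was at 1.08 and 1.19 CPM without and at 1.1 and 1.34 CPM with NAC, and was not called.

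Of the listed genes of the IGF axis, GRB10 and IGF2R fell with NAC and IGF2 was not called. GRB10 (chr7:50590068-50793453) was at 166 and 169 CPM without and at 88.4 and 95 CPM with NAC, a log2 fold change of -0.87 ± 0.092 with an adjusted p of 3.0e-05. In WT it was at 153 and 148 CPM and at 5% O2 at 131 and 149 CPM, all above the NAC pair. IGF2R, the receptor that clears IGF2, was at 260 and 229 CPM without and at 157 and 195 CPM with NAC, and its log2 fold change of -0.48 ± 0.13 (adjusted p of 0.00886) became 0.21 with the length and GC trend removed. IGF2R was at 180 and 220 CPM in WT and at 214 and 235 CPM at 5% O2. Of 19 other tested genes of the IGF axis, 1 rose and 9 fell with NAC (against 23.8% and 20.8% of all genes), with a median log2 fold change of -0.28. The 9 included the receptor gene IGF1R, at 143 and 128 CPM without and at 68.7 and 66.7 CPM with NAC. The 1 that rose, IGFBP5, was at 47.9 CPM in NAC replicate 1 and at 5.04 CPM in replicate 2. With the trend removed the counts were 1 and 4 of the 19, where 26.3% of all genes were called in either direction. Without NAC replicate 1 the median log2 fold change of the 19 was -0.37. Of all genes, 1.96% were called in KO against WT. In KO against WT 0 of the 19 were called, and 2, IRS2 and IGF1R, were called higher without NAC replicate 1, where 7.98% of all genes were called.

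GNAS and MEST, 2 of the most abundant listed genes, moved apart. GNAS (chr20:58839748-58911192) fell from 1236.5 and 1218.1 CPM to 868 and 895 CPM, a log2 fold change of -0.48 ± 0.071 with an adjusted p of 2.2e-04. MEST (chr7:130486175-130506465) rose from 261 and 265 CPM to 352 and 375 CPM, a log2 fold change of 0.47 ± 0.081 with an adjusted p of 6.0e-04. In both genes the pairs did not overlap, as in some listed genes that were not called with NAC. GNAS was at 1226.8 and 1212.4 CPM in WT and at 1212.9 and 1251.3 CPM at 5% O2, so its 6 libraries without NAC lay close together. MEST was at 256 and 240 CPM in WT. The zinc finger gene PEG3 was at 32.9 and 25.6 CPM without and at 15.45 and 21.8 CPM with NAC (adjusted p of 0.00922). Its level was 26.2 and 22.9 CPM in WT and 20.3 and 21.8 CPM at 5% O2. FAM50B was at 5.1 and 5.39 CPM without and at 3.78 and 2.77 CPM with NAC (adjusted p of 0.0302), with 4.86 and 4.99 CPM at 5% O2. PLAGL1 was at 2 and 7 counts without and at 35 and 12 counts with NAC, a log2 fold change of 2.51 ± 0.79 with an adjusted p of 0.0214, and it had 8 and 4 counts at 5% O2. The 14q32.2 gene DLK1, which encodes a membrane protein related to Notch ligands, was at 3.58 and 4.47 CPM without and at 1.7 and 3.11 CPM with NAC, with an adjusted p of 0.0626 that was 0.321 without NAC replicate 1. DESeq2 called DLK1 with all 8 libraries.

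The NAC pair differed widely at a few listed genes. Of the fibroblast markers 8 were tested, and 4 were called higher with NAC, against 23.8% of all genes. Without NAC replicate 1 the count was 0 higher and 2 lower, where 40.9% of all genes were called in either direction. In NAC replicate 1 and replicate 2, CDKN1C had 611 and 63 counts, a CPM ratio of 7.58, and the log2 fold change with NAC was 0.44 ± 0.61. Without replicate 1 it was -1.68 with an adjusted p of 0.00157, and without replicate 2 it was 1.25 with an adjusted p of 0.00179. MEG3 had 67 and 0 counts, PLAGL1 had 35 and 12, and IGF2 had 0 and 18. More than 2-fold apart between the NAC libraries were 4 of the 29 tested genes (13.8%), namely IGF2, KCNQ1OT1, CDKN1C and PLAGL1, against 7.63% of all tested genes. Without NAC replicate 1, 12 of 29 were called (41.4%, where 40.9% of all genes were). PEG3, PLAGL1 and PPP1R9A were then no longer called, while CDKN1C and ZNF331 were. The part of the fibroblast marker RNA in these values was not tested.

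**Figure D3:**
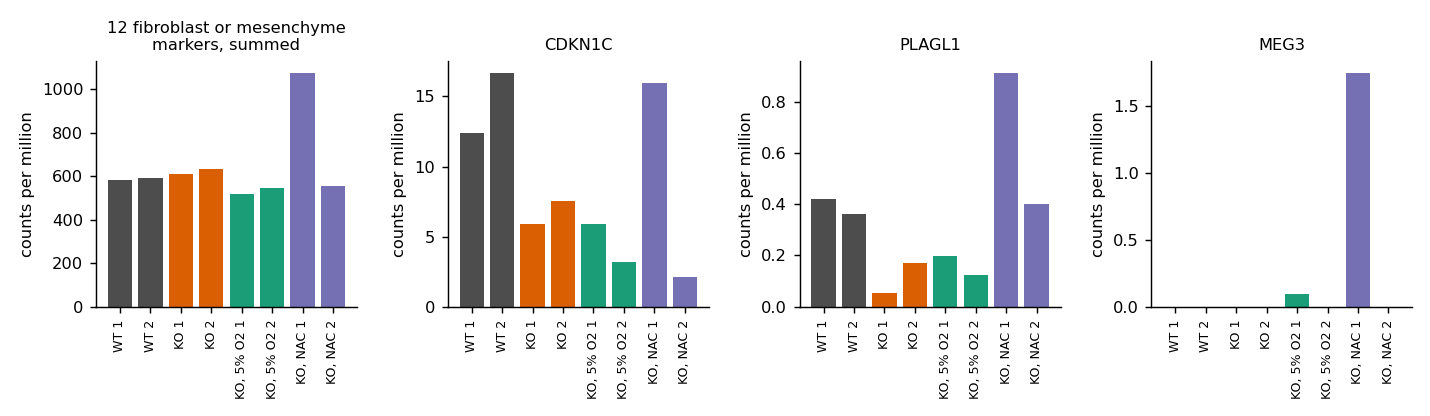
Level in CPM in each of the 8 libraries for the sum of 12 fibroblast or mesenchyme markers and for CDKN1C, PLAGL1 and MEG3; each bar is 1 library and the labels give group and replicate. NAC replicate 1 has the highest marker sum (1077.2 CPM), and CDKN1C, PLAGL1 and MEG3 are all higher there than in NAC replicate 2.

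Gene composition moved with the NAC comparison as well. Across 15283 tested genes with a known canonical transcript, the log2 fold change with NAC had a Spearman rho of -0.493 with GC content and -0.246 with length (genes are not independent replicates). Among the listed genes the 5 called higher had GC contents of 37.1% to 52.2%, with a median of 46.2%, and lengths of 1868 to 3269 bases. The 8 called lower had GC contents of 40.4% to 61.2%, with a median of 53.2%, and lengths of 1643 to 14061 bases. With a smooth trend on length and GC removed from each library, 7 of 29 listed genes were called (24.1%, where 26.3% of all genes were): GNAS, PPP1R9A, GRB10, PLAGL1, MEST, PEG10 and NAP1L5. The median over the listed genes was then -0.087. SGCE kept its direction at 0.45 with an adjusted p of 0.0547, MAGEL2 at -0.46 with 0.0811, and NDN at 0.27 with 0.0537. The split of PEG10 and SGCE therefore kept both directions but only 1 of its 2 calls, and that of NDN and MAGEL2 kept both directions and neither call. The same removal left 0 of 29 called in KO against WT, where 1.18% of all genes were called.

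**Figure D4:**
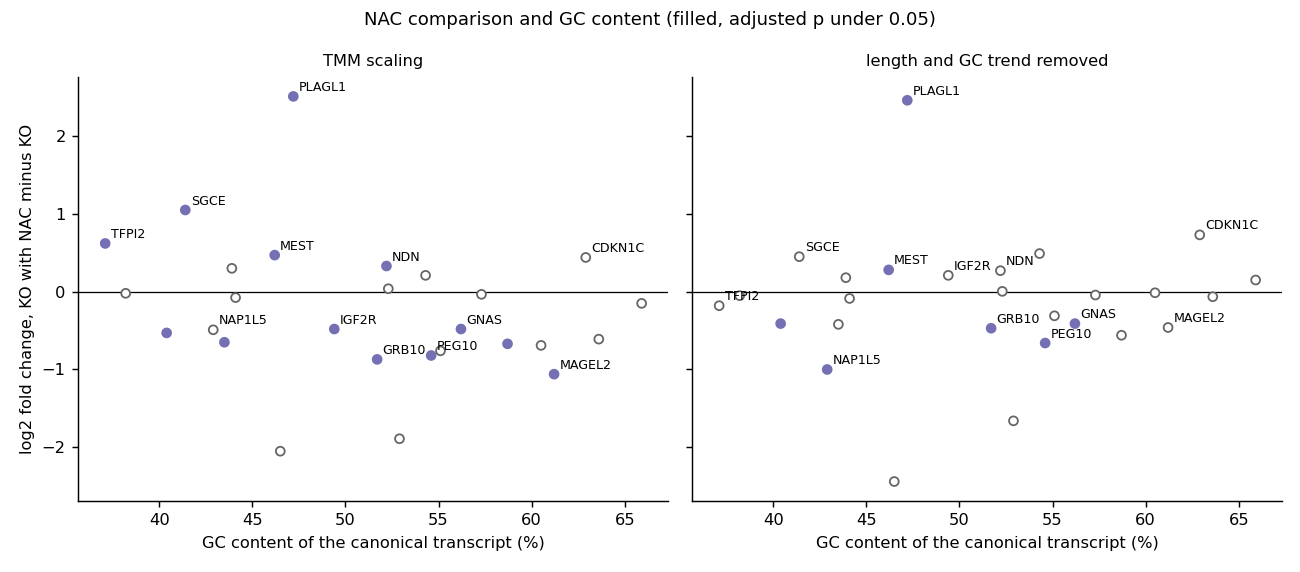
Log2 fold change of KO with NAC minus KO against the GC content (%) of the canonical transcript for 27 listed genes, under TMM scaling (left) and with the length and GC trend removed (right); filled points had an adjusted p under 0.05 and 12 genes are named. TFPI2, at 37.1% GC, moves from 0.62 to -0.18, whereas PEG10, at 54.6% GC, stays below 0 at -0.82 and -0.66.

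The calls with NAC that least depended on a single library were few. SGCE, GNAS, GRB10, MEST, PEG10 and MAGEL2, 6 of the 13, were called in each of the 8 fits that left out 1 library. Of these, GNAS, GRB10, MEST and PEG10 were also called in all 9 other settings tried, including the removal of the trend. The remaining 7 of the 13 each lost their call in at least 1 of the 8 fits.

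At 5% O2, 3 of the 29 listed genes rose in KO cells (10.3%, against 3.68% of all genes called higher) and 0 fell, against 4.13% of all genes called lower and 7.81% in either direction (586 genes higher and 657 lower, or 275 and 51 with the length and GC trend removed). MEST was at 261 and 265 CPM at normal O2 and at 355 and 337 CPM at 5% O2, a log2 fold change of 0.40 ± 0.081 with an adjusted p of 0.0182. NNAT was at 125 and 125 CPM at normal O2 and at 156 and 158 CPM at 5% O2, a log2 fold change of 0.33 ± 0.081 with an adjusted p of 0.0327. TFPI2 was at 13.7 and 9.16 CPM at normal O2 and at 19.2 and 19.2 CPM at 5% O2, a log2 fold change of 0.75 ± 0.17 with an adjusted p of 0.0278. In all 3 genes the pairs did not overlap, which also held for genes not called at 5% O2, such as FAM50B and NAP1L5. The share of all tested genes for which it held is not given. NNAT, with 107 and 101 CPM in WT and 121 and 123 CPM with NAC, was highest in the 5% O2 pair of all 8 libraries. The median log2 fold change was -0.092 over the listed genes and -0.00025 over all tested genes.

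None of these 3 calls held when either 5% O2 library was left out. Leaving out either 5% O2 library, or KO replicate 2, left 0 listed genes called, and leaving out KO replicate 1 left TFPI2 alone. With WT replicate 1 left out TFPI2 was lost, and with WT replicate 2 left out NNAT and TFPI2 were lost. With the length and GC trend removed 0 of 29 were called, where 2.13% of all genes were, and the adjusted p of MEST was 0.0513. DESeq2 called 5 of 29 (17.2%, against 13.5% of all genes): MEST, NNAT and TFPI2 higher, GRB10 and PEG3 lower. Without NAC replicate 1 the fit called 7 of 29 (24.1%, against 16.8%): MEST, NNAT and TFPI2 higher, and NLRP2, PPP1R9A, GRB10 and PEG3 lower.

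By the study's criteria 1 listed gene passed at 5% O2 (3.45%, against 2.02% of all genes). This was NLRP2 at 19q13.42, a gene of the NOD-like receptor family known for its role in the egg. It had 9 and 18 counts in KO cells at normal O2 and 0 and 1 at 5% O2, a ratio of 27 in the shares of counts with a 95% exact interval of 4.45 to 1105.9 that covers counting error only. Its adjusted p was 0.0711. In the WT libraries it had 4 and 17 counts, and with NAC 2 and 4. As 90.6% of its words lie on alternate scaffolds, the counts may hold only part of its RNA.

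The NAC and 5% O2 comparisons share the same 2 untreated KO libraries, so their values are given side by side only. The 2 treatments may also differ in length. For MEST the log2 fold change was 0.47 with NAC and 0.40 at 5% O2, and for TFPI2 it was 0.62 and 0.75. For NNAT it was -0.034 with NAC and 0.33 at 5% O2. For PEG10 it was -0.82 and -0.018, and for GNAS -0.48 and 0.0056. MAGEL2 was at -1.06 with NAC and 0.18 at 5% O2, and GRB10 at -0.87 and -0.26. The CPM ratio of NNAT to BLCAP, whose intron holds NNAT, was 2.11 ± 0.0504 in WT, 2.42 ± 0.0328 in KO, 3.13 ± 0.269 at 5% O2 and 2.35 ± 0.47 with NAC (SD, n = 2).

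Other tested genes that were called in no comparison under either rule are given by their ranges. INPP5F, an inositol phosphatase gene, ranged from 129 to 160 CPM over the 8 libraries, and BLCAP from 45.8 to 60 CPM. ZDBF2, which encodes a zinc finger protein, ranged from 12.7 to 16.5 CPM, and the zinc finger gene ZNF331 from 12.12 to 20.1 CPM. NAP1L5, related to nucleosome assembly proteins, ranged from 2.01 to 3.33 CPM, L3MBTL1, a chromatin reader gene, from 0.717 to 1.87 CPM, and the transporter gene SLC22A18 from 0.36 to 1.54 CPM. DIRAS3, a Ras-family gene, had 0 to 14 counts per library.

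The listed genes were also counted by the allele that is known to be expressed. Of 17 tested genes with paternal expression, 4 rose and 4 fell with NAC (against 23.8% and 20.8% of all genes), and 2 rose and 0 fell at 5% O2 (against 3.68% and 4.13%). Of 5 with maternal expression, 1 rose and 1 fell with NAC, and 1 rose at 5% O2. Of 4 genes imprinted by transcript, 0 rose and 2 fell with NAC, and of 3 with no assigned allele 0 rose and 1 fell. In KO against WT the median log2 fold change was 0.18 over the paternal and -0.22 over the maternal genes, against -0.0024 over all tested genes. In either class 0 were called, where 1.96% of all genes were. The maternal genes KCNQ1, CDKN1C and SLC22A18 share a locus, as do PPP1R9A and TFPI2, so they are not independent.

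Genes that set, keep, read or erase imprints were also read as a list. Of 34 tested, 1 was called higher and 0 lower in KO against WT (against 1.34% and 0.622% of all genes). This was TET3, an enzyme that oxidises methylated cytosine, at 36.7 and 32.8 CPM in WT and at 52.8 and 46.9 CPM in KO, with an adjusted p of 0.0405 that became 0.154 with the trend removed. Without NAC replicate 1, 3 of 36 tested were called higher in KO (DNMT3A, UHRF1 and TET3), where 7.98% of all genes were called. With NAC, 5 rose and 16 fell (against 23.8% and 20.8% of all genes), with a median log2 fold change of -0.38. DNMT1, the maintenance DNA methyltransferase, was at 259 and 245 CPM without and at 116 and 124 CPM with NAC, a log2 fold change of -1.07 ± 0.10. Its partner UHRF1 was at 149 and 141 CPM without and at 68.3 and 73.4 CPM with NAC, a log2 fold change of -1.03 ± 0.10. With the trend removed, DNMT1 was at -0.58 and UHRF1 at -0.65, both still called, and the list counted 2 higher and 13 lower, where 26.3% of all genes were called in either direction. DNMT3A, a de novo DNA methyltransferase gene that was called lower with NAC, was called higher with the trend removed, at 0.21. TRIM28 had a log2 fold change of -0.66 with NAC that became -0.082 without the trend. At 5% O2, 2 of the 34 rose and 5 fell (against 3.68% and 4.13% of all genes). With the trend removed 0 were called, where 2.13% of all genes were. Of the 19 genes of the IGF axis, 1 rose and 2 fell at 5% O2, beside the same shares of all genes. The 1 that rose was IGFBP2, which encodes an IGF-binding protein (561 and 594 CPM to 888 and 1053.0 CPM, adjusted p of 0.00503). With the trend removed IGFBP2 stayed called and the other 2 did not.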

How the data were processed

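RNA-seq libraries of WA26 cells were analysed from the table of counts per gene that the authors deposited. Per the study, reads were trimmed, aligned to hg38 with HISAT2 and counted with featureCounts at default settings, without strand and without reads that mapped to several places, and FastQC 0.11.9 is named in the submitters' processing notes. The annotation used for counting is not given in the sources used here. Of 12 labelled samples, 8 had a column and 4 were not analysed here. The labels gave the groups. The imprinted genes, marker lists and tests were chosen with earlier results of these data known. Listed genes that were called, or that passed the study's criteria, in any comparison are given in every library, and the others by level or count range.

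Counts were tested in R 4.3.3 with edgeR 4.0.16 (filterByExpr with a minimum count of 10, TMM scaling, quasi-likelihood fit of all 8 libraries with 1 term per group, 4 residual degrees of freedom), with Benjamini-Hochberg adjustment over 15916 genes. Totals ran from 31236968 to 41639350 counts. Alternatives were DESeq2 1.42.0, other scalings and filters, replicate blocks, fits of the compared libraries only, each library left out, and the removal from each library of a smooth curve of counts on length and GC content of the transcript (GENCODE release 44, mgcv 1.9.3). On simulated counts of the NAC comparison, 200 of 200 genes changed by a log2 fold change of 2 were recovered with 9 unchanged genes called among 15597. With a simulated GC trend 4547 unchanged genes were called among 15573, and 11 among 14993 once it was removed. Recovery of changes smaller than a log2 fold change of 2 was not tested. Whether the trend in the libraries themselves resembles the one put in was not tested.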

Additional observations from a re-analysis of the deposited data

How the results depend on the processing

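The number of calls depended on the spread estimate, and with 2 libraries a group this rests on few degrees of freedom. In KO against WT, genes called higher and lower numbered 545 and 315 in DESeq2, 782 and 470 without a filter and 738 and 386 in a fit of the compared libraries only, 87 were higher with the length and GC trend removed, and 232 were lower by the study's criteria. Listed genes called were 2 higher in DESeq2, and 2 higher and 1 lower both without a filter and in the compared libraries only. Their median was 0.13 with upper quartile scaling and 0.10 without a filter, with at least 10 counts in every library or with the trend removed. With NAC, the trend removed left 2373 and 1652 genes, 2 and 5 listed genes and a median of -0.087, and the study's criteria gave 577 and 858 genes and 2 and 1 listed genes. The NAC median was -0.24 without a filter, -0.15 with at least 10 counts everywhere and -0.17 in the compared libraries only. At 5% O2, DESeq2 called 1081 and 1063 genes with 2 listed genes lower, no filter gave 1039 and 1181 with 1 lower and a median of -0.0018, the compared libraries only gave 1466 and 1543 with 3 lower and a median of -0.066, the trend removed gave 275 and 51 with 0 listed genes higher and a median of -0.037, the study's criteria gave 129 and 192 with 0 higher and 1 lower, and at least 10 counts everywhere gave a median of -0.04. In WT, 10 listed genes exceeded 10 CPM per kb and 17 exceeded 10 CPM. Where not stated in the report, the cause was not tested.

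With each library left out in turn, KO against WT ranged from 29 to 826 genes higher, 34 to 485 lower, 0 to 3 and 0 to 1 listed genes, and a median of 0.079 to 0.15, the most calls coming without a NAC library. The NAC comparison ranged from 2634 to 4070 higher, 2397 to 3521 lower, 3 to 7 and 4 to 10 listed genes, and a median of -0.43 to -0.23. The 5% O2 comparison ranged from 29 to 1320 higher, 5 to 1443 lower, 0 to 3 and 0 to 4 listed genes, and a median of -0.092 to -0.019. Directions turned for CDKN1C with NAC (-1.68 without NAC replicate 1 and 1.25 without NAC replicate 2, -0.028 with a replicate block within genotype), for TFPI2 (-0.18) and IGF2R (0.21) with NAC and the trend removed, and for MAGEL2 at 5% O2 (-0.0019 without 5% O2 replicate 2, 0.35 without replicate 1). Over 35 values of named genes, alternatives kept direction and side of the threshold 511 times, gained a call 35 times, lost it 39 times and turned direction 5 times. Replicate numbers did not pair the libraries (correlations of -0.0226 to 0.0816), and the replicate block added DLK1 with NAC (-0.78, edgeR adjusted p of 0.0299), while the block within genotype lost PLAGL1 (2.41) and FAM50B (-0.68).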
